A study of Arabidopsis thaliana with 3 samples.

Results

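The clones described here had intermediate negative ratios when inflorescences of the agamous mutant and of wild-type Arabidopsis thaliana were hybridised together. They were chosen by their values: the plain mean of the 3 deposited log2 ratios had to lie above -2 and at or below -1.5, and each of the 3 arrays had to give a value below 0. This took 223 of 9368 features (2.38%). The condition on single arrays removed none, because all 223 features with a mean in that band were below 0 on every array. The band of means corresponds to a difference of 2.83- to 3.99-fold between the 2 channels.

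Total RNA was compared on 3 spotted cDNA arrays, which carry cloned cDNAs as probes. The labels give agamous inflorescences as the source of channel 2 and wild-type inflorescences as the source of channel 1, and they name no allele, ecotype, age or growth condition for either genotype. All arrays belong to 1 group and are numbered here as replicates 1, 2 and 3. The labels do not tell whether separate plants were used for each array or whether the arrays shared an RNA pool, so their spread may be technical.

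AGAMOUS encodes a MADS-box transcription factor of the class that gives stamens and carpels their identity, and it also ends the activity of the floral meristem. In agamous flowers petals replace the stamens, and new flowers arise where carpels would form, so the inflorescence lacks the reproductive organs while it keeps sepals, petals, stems and meristems. A transcript made only in stamens or carpels would be nearly missing from the mutant RNA, one made equally everywhere would keep its level, and one made in lost and in kept organs alike could fall between. That is background to the choice of the band, and whether it holds for any clone here was not tested. In such whole inflorescences, fewer cells of a type and less RNA per cell cannot be told apart.

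Clones go by plate and well here, so GP001C5 is the clone in row C, column 5 of plate 001. A match to the names of the given reference table found 0 genes, so no gene, pathway or tissue marker is named, and the labelled tissue was not checked against markers. The sources used here do not say which genotype is the numerator of the ratio. Results are therefore stated for the negative side as deposited, with no statement of which genotype had more RNA. Spot intensities were not used, and with 3 arrays the number of arrays sets the limit of precision. The medians of the arrays lay between -0.19 and -0.11 on the log2 scale, and the SD over all features between 1.40 and 1.69.

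The clones lay in the thinly filled stretch between the bulk of features near 0 and the broad second group of strongly negative ratios. In steps of 0.25 on the log2 scale, the band held 92 features from -2 to -1.75 and 131 from -1.75 to -1.5. The step with 92 was the lowest between the 2 groups: the next lower step had 106 features, and counts climbed to 190 between -3.5 and -3.25. Below the band were 1787 features (19.1% of all) and above it 7358. The band therefore takes in the lowest point of the valley and the start of the rise towards 0, as the histogram of mean ratios shows.

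**Figure D1:**
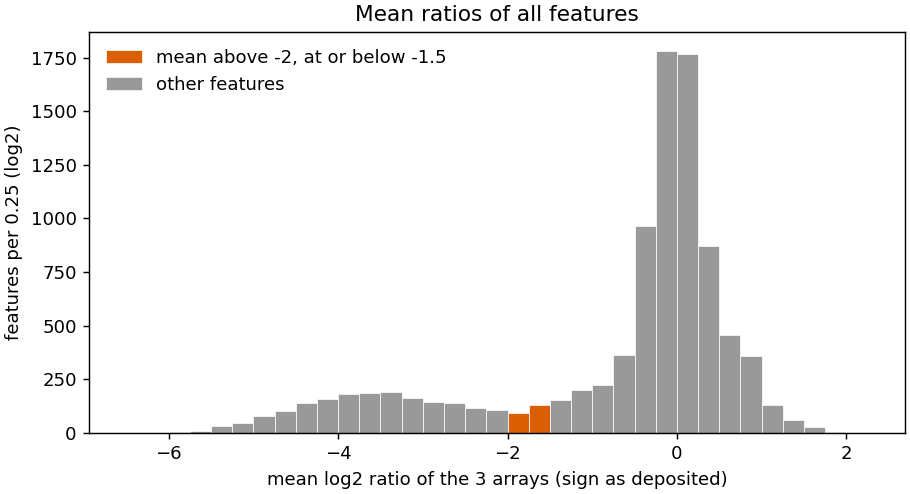
Number of features in steps of 0.25 of the mean log2 ratio over the 3 arrays, with the chosen band in orange and all other features in grey. The 2 orange steps hold 92 and 131 features and lie between the peak near 0 and the group that reaches 190 features between -3.5 and -3.25.

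Among themselves the 223 means were spread over the whole band, with a median of -1.71, a 3.28-fold difference, and quartiles of -1.85 and -1.60. On replicate 1 their values ran from -3.30 to -0.72 with a median of -1.88. On replicate 2 they ran from -2.59 to -0.46 with a median of -1.64. On replicate 3 the range was -2.98 to -0.46 and the median -1.57. The mean of these 3 medians was -1.70 ± 0.16 (SD, n = 3 arrays). The clones thus sat lowest on replicate 1, and single values reached far beyond the band on both sides.

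The order of the arrays depended on the scaling. As deposited, replicate 1 held the lowest value of 126 of the 223 clones, replicate 3 of 63 and replicate 2 of 34. Replicate 1 was also most often the lowest in the neighbouring bands, so that its share of 56.5% here lay between 65.3% in the next lower and 45.5% in the next higher band. After quantile normalization, which gives every array the same set of values, the clones' medians were -1.68, -1.73 and -1.68 in replicates 1, 2 and 3. With the arrays scaled to a common median absolute deviation they were -1.41, -1.53 and -1.75, so that replicate 3 was then the lowest. No order of the arrays is therefore attached to these clones.

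A mean in the band did not mean a value in the band on each array. Only 27 of the 223 clones had all 3 values between -2 and -1.5. Another 99 had 2 values there, 68 had 1, and 29 had none. In 79 clones at least 1 array lay at or below -2 while another lay above -1.5. Replicate 2 placed most clones inside the band (149 of 223), followed by replicate 1 (113) and replicate 3 (85). On replicate 1 the clones outside were mostly too low, with 82 at or below -2 and 28 above -1.5, whereas on replicate 3 they were mostly too high, with 39 at or below -2 and 99 above -1.5.

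The clones nearest to the median of the group show how different such means could be. GP106D6 gave -1.73, -1.64 and -1.77 in replicates 1, 2 and 3, a mean of -1.71. GP112C1 gave -2.06, -1.79 and -1.28 with the same mean. GP082D11, also with a mean of -1.71, gave -3.06, -0.46 and -1.61. All values of the first lay inside the band, while for the last the arrays differed more than the band is wide. GP082D11 also held the least negative single value of all 223 clones.

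In the fit over all features (limma's moderated test of the mean against 0, Benjamini-Hochberg adjustment, n = 3 arrays, threshold 0.05), all 223 clones were called on the negative side, where 32.7% of all features were called (45.2% on either side). The choice used these same values, so this count is a description only. Adjusted p in limma ranged from 2e-05 to 0.0183, with a median of 0.000131.

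The clones at the limits were not set apart from those just outside. Inside the lower limit, GP081C12 had a mean of -1.995 from values of -2.58, -2.06 and -1.35 in replicates 1, 2 and 3, and GP135B3 and GP042H12 had means of -1.993 and -1.990. Just outside it, GP096B9 had a mean of -2.0002, from -2.62, -2.05 and -1.34, and GP076B6 and GP010A5 had means of -2.004 and -2.008. At the upper limit, GP141B6, GP108F3 and GP033B3 were inside with means of -1.501, -1.502 and -1.503. Just above lay GP033F11, GP115D3 and GP009A3, with means of -1.4999, -1.499 and -1.498. GP081C12 and GP096B9 differed by 0.036 at most on any array although only the first belongs to the group.

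The spread of a clone over the 3 arrays had a median SD of 0.32 on the log2 scale among the 223, with quartiles of 0.21 and 0.50, against a median of 0.24 over all features. It lay between that of the next lower band, from -2.5 to -2 (219 features below 0 on every array, median SD 0.37), and that of the next higher, from -1.5 to -1 (352 such features, 0.26). The SD was at most 0.2 for 53 of the clones, between 0.2 and 0.4 for 83, between 0.4 and 0.8 for 62, and above 0.8 for 25. An SD above 0.8 was thus found for 11.2% of the clones, compared with 5.48% in the next lower and 4.83% in the next higher band. These shares come from the values that chose the clones and were not tested.

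**Figure D2:**
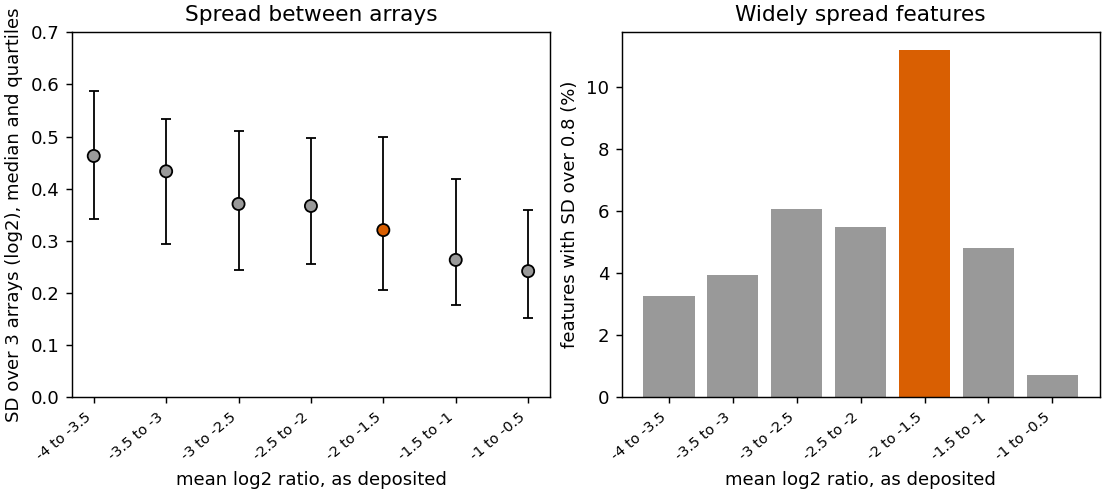
Left, median SD over the 3 arrays with quartiles as bars, for features below 0 on every array in steps of 0.5 of the mean log2 ratio. Right, the percentage of features with an SD above 0.8 in each step. The chosen band, in orange, has a median SD of 0.32 between its neighbours' 0.37 and 0.26, and 11.2% of its clones have an SD above 0.8.

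At the steady end, GP107D8 gave -1.68, -1.58 and -1.63 in replicates 1, 2 and 3, an SD of 0.053 around a mean of -1.63. GP091B8 gave -1.78, -1.86 and -1.89, and GP102C4 gave -1.60, -1.51 and -1.47. The means correspond to a difference of 3.09-fold for GP107D8, 3.59-fold for GP091B8 and 2.88-fold for GP102C4. These clones were picked for the smallest SD among the 223, so their small spread follows from the choice and is no measure of precision. In limma's fit the standard error of the mean was 0.129 for each of them on the log2 scale.

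At the other end, the 25 clones with an SD above 0.8 were mostly of 2 kinds with like values among themselves. These kinds were singled out after their values were seen, so their values are descriptions with no test. The first consists of 6 clones of plate 001, in wells C5, C6, E1, E2, E9 and E10. Their values lay between -3.28 and -3.02 on replicate 1, between -1.58 and -1.47 on replicate 2, and between -0.75 and -0.61 on replicate 3. Each clone of this set was therefore lowest on replicate 1 and highest on replicate 3, and the ranges of the arrays did not overlap. That order was common: it was found in 88 of the 223 clones (39.5%), in 28.8% of the next lower band and in 27.3% of the next higher.

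The 6 clones had nearly the same profile. GP001C5 gave -3.17, -1.56 and -0.73 in replicates 1, 2 and 3, and GP001C6 gave -3.17, -1.58 and -0.73. Measured as the root mean square of the differences over the 3 arrays, these 2 were 0.011 apart on the log2 scale. All 6 lay within 0.11 of GP001C5, and of the 9368 features these were the only ones within 0.2. The next nearest, GP074D6, stood 0.42 away and belonged to the band as well. Adjusted p in limma's fit was 0.00994 to 0.0171 for the 6 clones, whose means lay between -1.82 and -1.75.

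The second kind was far lower on replicate 1 than on replicate 2. With limits of at most -2.5 on replicate 1 and above -1 on replicate 2, it took 21 features, of which 13 were in the band. The other 8 had means from -2.63 to -1.40. A low and a high value together tend to give an intermediate mean, so nothing is read from the 13. The 13 clones came from 11 plates. Their medians were -2.88, -0.60 and -1.47 in replicates 1, 2 and 3. GP067G11 had the largest SD of all 223 clones, 1.39, from values of -3.30, -0.56 and -1.53, and its value on replicate 1 was the most negative single value in the group. GP060G6, with -3.20, -0.51 and -1.68, came close to it. The same limits with replicates 1 and 2 exchanged took 0 features of the whole table, while those with replicate 3 in place of replicate 2 as the higher array took 10, of which 7 were in the band. As deposited, replicate 2 was the lowest array for 15.2% of the band and 8.22% of the next lower band. In the next higher band it was the lowest for 29.5%, more often than replicate 3 (25%). For both kinds the mean depended on which arrays entered it. Without replicate 1 the mean of GP067G11 was -1.05, against -1.80 with all arrays, and that of GP001E1 was -1.04, against -1.78. Adjusted p in limma for GP067G11 was 0.0178 with all arrays and 0.0577 without replicate 3, and ranged from 0.00626 to 0.0577 over the alternatives. For GP001E1 it was 0.0171 with all arrays and 0.0546 without replicate 2, with a range from 0.00161 to 0.0546. Of all 223 clones, 6 lost the call without replicate 3, all of the second kind (GP060G6, GP067G11, GP074G11, GP082D11, GP111G2 and GP117D9), 2 without replicate 2 (GP001E1 and GP076D1) and 0 without replicate 1.

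The remaining 6 clones with an SD above 0.8 lay outside the limits of both kinds. GP076D1 gave -2.79, -2.59 and -0.46 in replicates 1, 2 and 3, and GP103A12 was likewise higher on replicate 3, with -2.36, -2.41 and -0.90. In GP043C10 (-1.61, -1.14 and -2.95) and GP123G4 (-1.41, -1.29 and -2.98) replicate 3 was instead the lowest. GP083D7 gave -0.72, -1.77 and -2.61, and GP074D6 gave -2.46, -1.52 and -0.85. GP076D1 and GP074D6 thus had the same order of the arrays as the clones of plate 001, with less like values. Without both kinds, the other 204 clones had a median SD of 0.29 and medians of -1.83, -1.68 and -1.59 in replicates 1, 2 and 3.

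**Figure D3:**
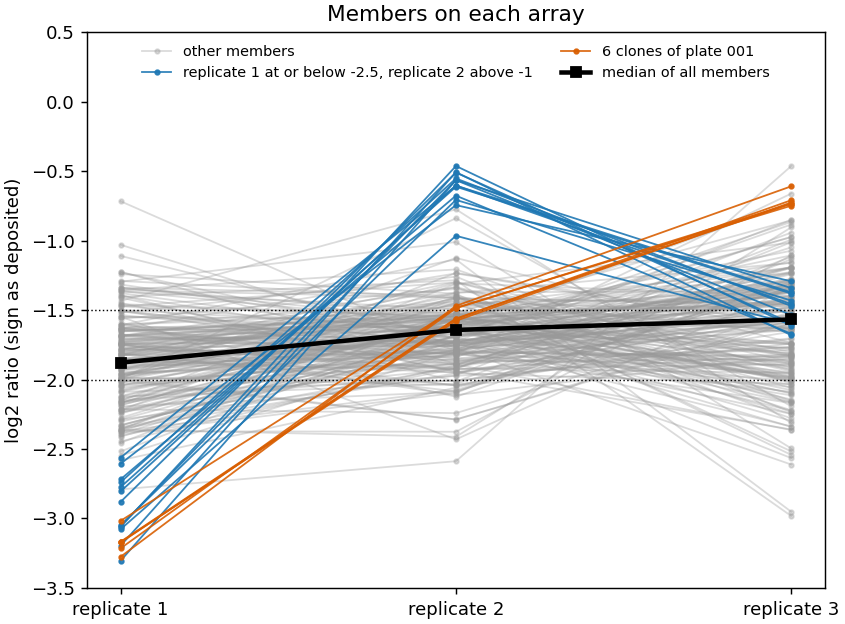
Log2 ratio, as deposited, of each of the 223 clones on replicates 1, 2 and 3, with a line per clone, dotted lines at the limits of the band and the median of all clones in black (-1.88, -1.64 and -1.57). The 6 clones of plate 001, in orange, form a tight bundle, and the 13 clones in blue are at or below -2.5 on replicate 1 and above -1 on replicate 2.

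Whether a value in the band is found again on arrays that took no part in the choice was examined by choosing on 1 array and testing on the other 2. These sets differ from the 223, since 1 array alone sets them. On replicate 1, 238 features lay in the band, and in limma's fit to replicates 2 and 3 over all features (adjusted p under 0.05, n = 2 arrays) 215 of them (90.3%) were called on the negative side, against 29.8% of all features. Of the 280 features chosen on replicate 2, 275 (98.2%) were called on replicates 1 and 3, against 28.2% of all features. Of the 196 chosen on replicate 3, 188 (95.9%) were called on replicates 1 and 2, against 31.0% of all features. No chosen feature was called on the positive side in any of the 3 fits. The negative sign therefore recurred in most features chosen this way, although the arrays may share RNA pools.

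The size of the ratio was looked at by whether the mean of the other arrays lay in the band. That demand is stricter than a call below 0, so these shares cannot be ranked against those for the sign. The mean of the other 2 arrays lay in the band for 81 of 238 features chosen on replicate 1 (34.0%), for 116 of 280 chosen on replicate 2 (41.4%) and for 58 of 196 chosen on replicate 3 (29.6%). Over all 9368 features, the rule of the band took 229, 227 and 229 when replicates 1, 2 and 3 were left out in turn. The shares among the chosen features were thus far above those of all features, though no test was run on them. Features chosen on replicate 1 had a median of -1.47 on the other arrays (quartiles -1.80 and -1.19), and 129 of them lay above -1.5. Features chosen on replicates 2 and 3 had lower medians on the other arrays, -1.74 and -1.79, with 88 and 75 of them at or below -2. These are deposited values, and the arrays differed in scale: the SD over all features was 1.691, 1.402 and 1.545 in replicates 1, 2 and 3. How far this scale sets the medians was not tested. Among features chosen on replicate 1, 33 had a mean above -1 on the other 2 arrays, and the highest was 0.50. Of those chosen on replicate 3, all 196 were below 0 on both other arrays.

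**Figure D4:**
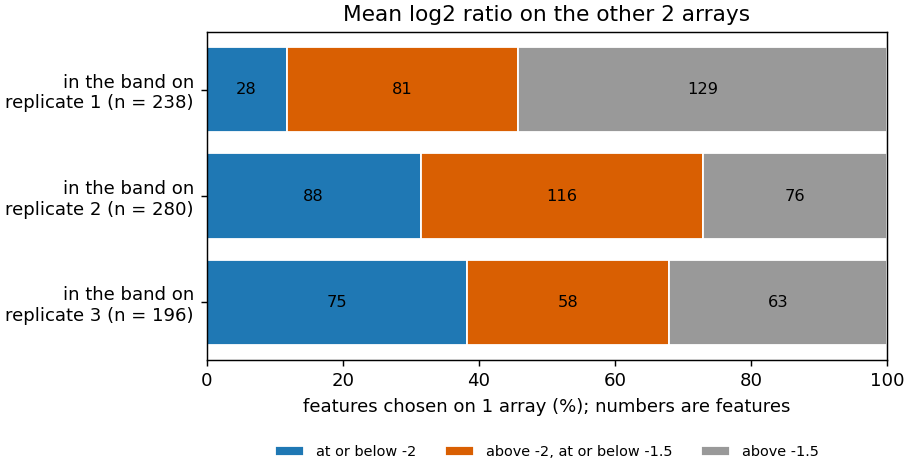
Features chosen by a value above -2 and at or below -1.5 on 1 array, divided by their mean log2 ratio on the other 2 arrays, in percent of the chosen features, with counts in the bars. Between 29.6% and 41.4% stay in the band, and for replicate 1 the largest part, 129 of 238, lies above -1.5.

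The place of the clones on the plates was not used in the choice. The table holds 114 plates, of which 27 had no clone in the band, 30 had 1 and 26 had 2. The plates with most were plate 001 with 8 of 72 features (11.1%), and plates 092, 102 and 116 with 7 each (7.78%, 7.78% and 7.53%). On plate 001, 6 of the 8 are the clones with the shared profile above. Over the rows of the plates the share ran from 1.67% in row A to 2.85% in row E, and over the columns from 1.80% in column 5 to 3.05% in column 1.

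Earlier-numbered plates held more of these clones. Plates 119 to 147 had 21 among 2270 features (0.925%) and plates 000 to 118 had 202 among 7098 (2.85%). The division is the best single break in the share of features at or below -1, which was found in these same data, so this difference was not tested. Taken array by array, 1.03% ± 0.32 of the features on plates 119 to 147 lay in the band and 3.02% ± 0.51 of those on plates 000 to 118 (SD, n = 3 arrays). Since every array measured the same clones, this SD does not include the spread between plates. Single plates ranged from 0% to 3.49% after the break and from 0% to 11.1% before it, so the ranges of the plates overlapped.

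Relative to the strongly negative features, the band was filled the other way round. Of the 93 features at or below -1.5 on plates 119 to 147, 22.6% lay in the band, against 10.5% of the 1917 on plates 000 to 118. On replicates 1, 2 and 3 the shares were 27.5%, 28.4% and 16.1% on the later plates, and 10.5%, 13.3% and 9.71% on the earlier ones, so the later plates had the higher share on each array. The earlier set was not uniform. On its plates 000 to 006, 46.4% of the 28 features at or below -1.5 lay in the band. By replicates 1, 2 and 3 alone, the share on those plates was 12.5%, 44% and 35%. Those 28 features include the 6 clones of plate 001 with the shared profile. Plates 000 to 006 were picked without a stated rule and are not the only earlier plates with few strongly negative features. Features at or below -2 made up 4% of plate 010 and 1.27% of plate 042, but 14.3% of plate 004. Clones from later plates made up 9.42% of the band, between 5.94% of the next lower and 14.2% of the next higher band. This was part of a steady rise, from 3.01% for means between -4 and -3.5 to 21.2% between -1 and -0.5. The later plates held 2270 of all 9368 features. The rule holds every mean inside the band, so the median means had to be close: -1.74 on the later plates and -1.71 on the earlier. The median SD was 0.32 in each set. Single arrays differed more. In replicates 1, 2 and 3 the medians were -1.74, -1.57 and -1.89 for the 21 clones of the later plates. For the 202 of the earlier plates they were -1.88, -1.65 and -1.54. As deposited, replicate 3 thus had the lowest median on the later plates and the highest on the earlier. No test was run on these shares and medians.

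**Figure D5:**
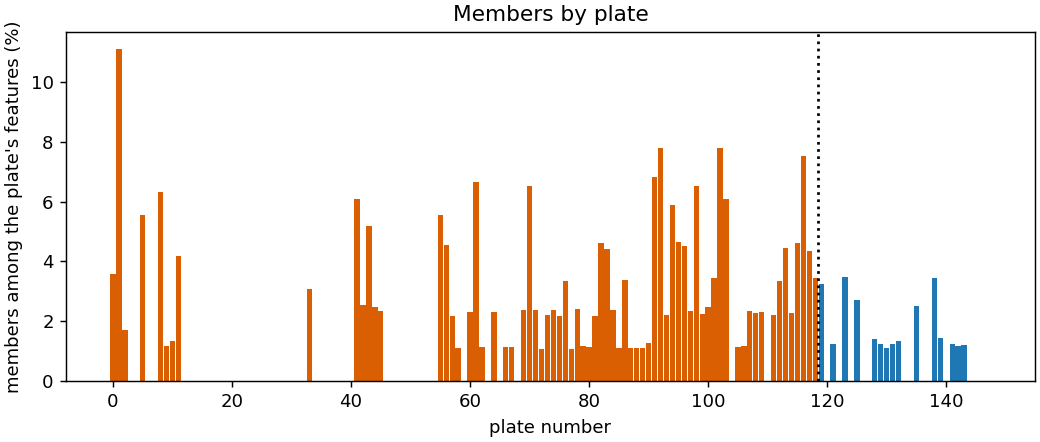
Percentage of each plate's features that lie in the band, by plate number, with plates up to 118 in orange, plates from 119 in blue and a dotted line between them. Plate 001 reaches 11.1%, no plate from 119 on exceeds 3.49%, and gaps are plates without such clones or without features in the table.

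Clones of the band also stood in neighbouring wells. In 9 cases 2 of them were in next wells of a row, and in 5 of these the profiles differed by less than 0.2 (root mean square over the arrays). The 5 include 3 pairs of plate 001, C5 with C6, E1 with E2, and E9 with E10. GP005E10 gave -2.33, -1.69 and -0.87 in replicates 1, 2 and 3 and GP005E11 gave -2.16, -1.79 and -0.85, a difference of 0.11. GP041B7 gave -1.82, -1.72 and -1.38 and GP041B8 gave -1.91, -1.79 and -1.51, a difference of 0.10. Down the columns 4 pairs of next wells held 2 clones of the band, and 0 of them differed by less than 0.2. The rule holds all means inside the band, so some likeness between any 2 clones is built in. The share of like profiles among clones in wells further apart was not counted, so these counts are a description. Whether neighbouring clones with such like profiles stand for 1 transcript was not tested, so 223 is a count of features and not of transcripts.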

How the data were processed

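The authors deposited 1 log2 ratio per feature and array, already preprocessed and normalized by their own published method, per the labels. The steps, the dyes, the centring and the numerator of the ratio are not given here. That the deposited values are log2 was worked out from their decimals: times the natural log of 2, between 98.8% and 98.9% of them per array lie on a grid of 0.0001 within 1.2e-06, where chance gives 2.4%.

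All 9368 features were fitted in R 4.3.3 with an intercept as the single term (limma 3.58.1, lmFit and eBayes, two-sided test, Benjamini-Hochberg adjustment, threshold 0.05), also without each array in turn. The fit was also run on simulated data with independent errors. That run cannot show how the fit behaves on these arrays, which differ in scale and may share RNA pools. Counts used Python 3.11.15, NumPy 2.4.6 and pandas 2.3.3. The clones and rules were chosen with earlier results of these data known. Named are the 3 clones nearest each limit and the 3 features just outside, the 3 of smallest and of largest SD, the 3 nearest the median, the extreme single values, and next wells differing by less than 0.2. The 2 kinds of shared profile were added after seeing the data. Alternatives were centring, scaling, quantile normalization, trend and robust, array weights, a threshold of 0.01 and other limits of the band.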

Additional observations from a re-analysis of the deposited data

How the results depend on the processing

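The number of clones in the band, 223, stayed within 1.5 times under all alternatives but 1: with every array inside the band it was 27. Which clones they were changed more. Median centring gave 211 clones, 146 of them among the 223, main-peak centring 220 (219 shared), quantile normalization 222 (212), scaling by the median absolute deviation 205 (155) and the median of the arrays 240 (176). Leaving out 1 array gave 227 to 229 (147 to 170 shared). Moving the band by 0.2 gave 210 clones downwards (119 shared) and 277 upwards (151 shared), where the share of features was 3.48% on plates 000 to 118 and 1.32% on plates 119 to 147. Replicate 2 alone gave 3.56% on plates 000 to 118. Over all features the calls stayed within 1.5 times of 4238. Among the 223 clones, limma called 217 to 223 when an array was left out, and 208 when the threshold was 0.01. Over all 9368 features it called 29.8%, 28.2% and 31.0% on the negative side without replicates 1, 2 and 3 in turn. With all arrays and a threshold of 0.01 it called 2595 of the 9368 on that side. The choice used these same values, so the counts among the 223 are a description only. Of 460 values of 46 named features, none changed sign and 23 lost the call, 15 of them at an adjusted p under 0.01, 6 without replicate 3 and 2 without replicate 2. Counts called on arrays outside the choice also stayed within 1.5 times. Each ratio already compares both genotypes on the same array. All arrays form a single group, so no pairing between groups of arrays was possible. Without spot intensities, the limits set by signal over background are unknown.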
